A study of Arabidopsis thaliana with 6 samples.

Results

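The data described here are the transcript levels of untreated wild-type seedlings of Arabidopsis thaliana that had germinated and grown in darkness. They come from both Col_MS libraries, biological repeats 1 and 2, out of 6 libraries in the series, and were chosen by their labels alone. Col_MS is the accession Col-0, wild type, on MS, a mineral medium for plant culture. The other 4 libraries are used only for comparison: 2 of Col_Kyn, which is Col-0 on MS with kynurenine, an inhibitor of auxin biosynthesis whose concentration the labels give as 25 mM, and 2 of wei8tar2_MS, a line of the same accession on MS that carries wei8 in the homozygous and tar2 in the heterozygous state. All groups were harvested as whole etiolated seedlings aged 3 days. Their seeds had been imbibed for 3 days at 4 °C and lit for a few hours to start germination, after which the plates were wrapped in foil and held for 3 days at 22 °C. The labels do not give how many seedlings entered a library. Because whole seedlings were ground, a low level may mean fewer cells of a type or less RNA per cell, which cannot be told apart.

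A seedling that germinates in the dark lives on its stored oil. Fatty acids from the oil are broken down in peroxisomes and turned into sugar through the glyoxylate cycle, while the hypocotyl lengthens mainly by cell expansion, which needs water uptake into the vacuole and a wall that yields and is rebuilt. Its plastids are etioplasts, which hold protochlorophyllide and its reductases and can green within hours of reaching light.

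Uniquely mapped reads counted on listed loci summed to 26.8 M and 28.2 M in replicates 1 and 2, over 23854 and 24107 loci. Reads outside listed loci are not in these totals, and reads on overlapping loci may be in them more than once. Levels are the deposited RPKM, which scales reads to the listed locus length and to the library total, and values are given in the order of replicates 1 and 2. Loci of ribosomal RNA took 2.72% and 3.02% of the reads and mitochondrial loci 0.322% and 0.354%, and no plastid locus was listed. Both libraries listed 18011 nuclear loci at an RPKM of 1 or more, and 97.7% of these differed by no more than 2-fold between the replicates. The correlation of log2 RPKM across these loci was 0.977, a description across genes, which are not independent replicates. Of the 18011 loci, 55 lay over 4-fold apart, and 52 of them were higher in replicate 1. Since these genes were mostly high in replicate 1, each level below is given for both libraries.

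**Figure D1:**
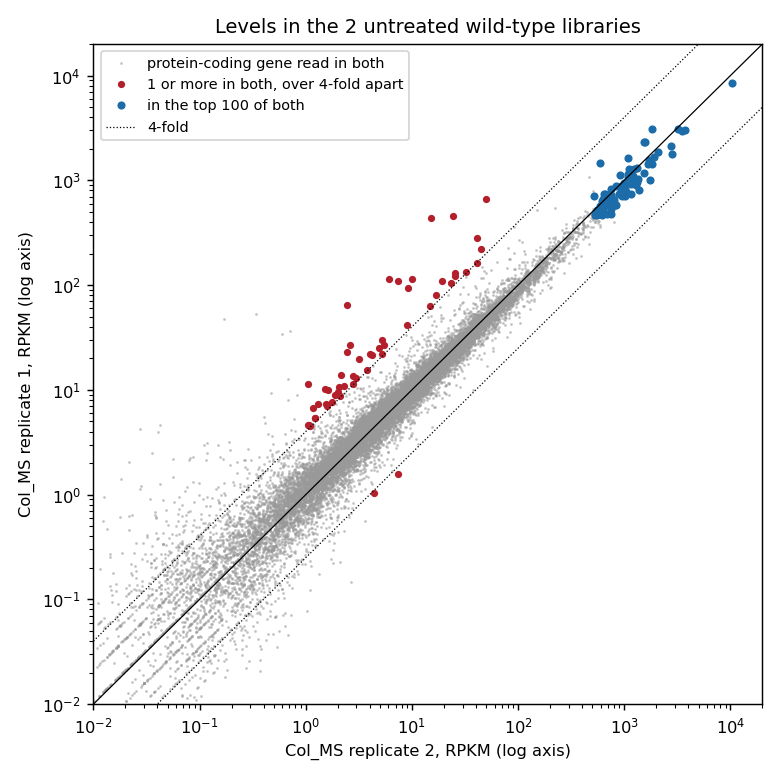
Levels of protein-coding genes in Col_MS replicate 1 (vertical, RPKM, log axis) against Col_MS replicate 2 (horizontal, RPKM, log axis), for genes with a read in both. Blue points are genes in the top 100 of both libraries and red points are genes at 1 or more in both that lay over 4-fold apart; most red points lie above the diagonal, that is, higher in replicate 1.

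The mRNA pool was spread over many genes, with a steep top. The 10 highest nuclear loci held 6.53% and 6.89% of the summed nuclear RPKM, the 100 highest 21.4% and 22.4%, and the 1000 highest 52.2% and 54.1%. It took 876 loci in replicate 1 and 783 in replicate 2 to reach 50% of the sum. An RPKM of at least 100 was reached by 718 loci in both libraries, and 27 reached at least 1000. A gene is called dominant here where it was among the 100 highest nuclear loci of each library, ribosomal RNA left out. This held for 86 loci, 84 of them annotated as protein coding. They took 19.7% and 20.8% of the summed nuclear RPKM, and 14.5% and 15.4% of all reads. Among the 86, SAMDC had 33664 and 39823 reads and AT3G02468, which has no place in the annotation used, had 33660 and 39812. These near-equal counts may be the same reads listed under both names, in which case the set and its shares count them more than once. At the edge of the set, XTH4 with 467 and 617 RPKM lay just inside and FSD1 with 528 and 509.6 just outside.

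**Figure D2:**
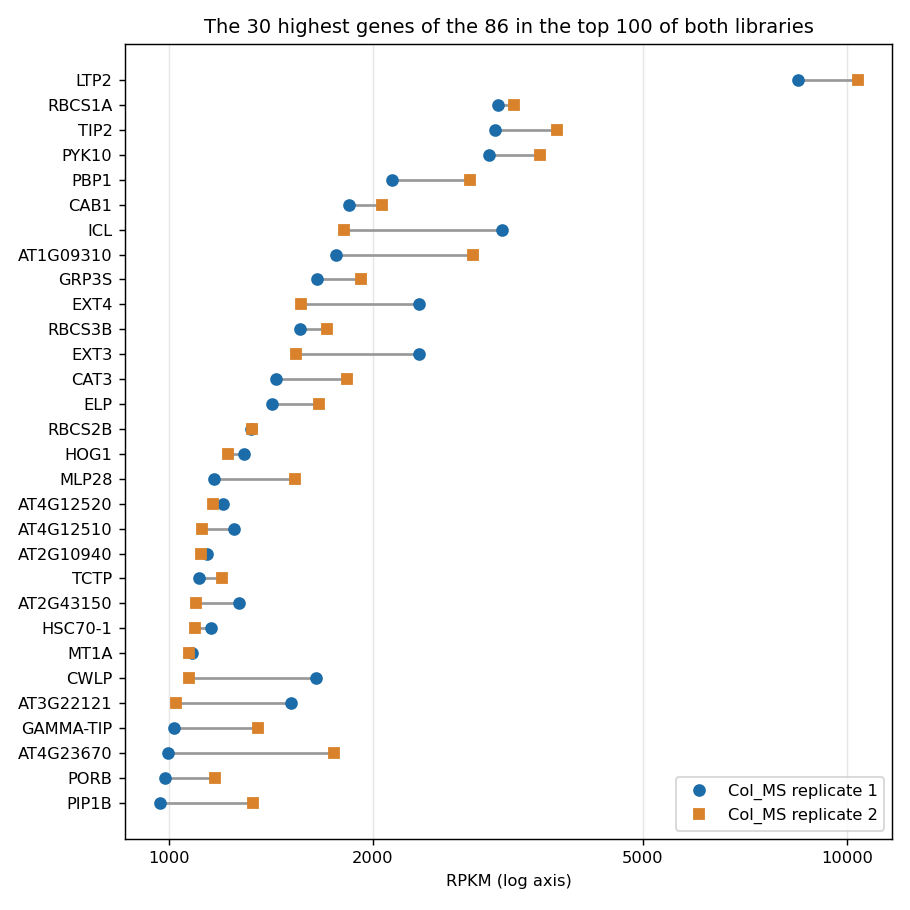
RPKM (log axis) of the 30 dominant genes with the highest lower value, in Col_MS replicate 1 (circles) and replicate 2 (squares), with a line joining both. LTP2 stands alone near the right edge, at 8452 and 10358, and the other 29 lie between 971 and 3729.6.

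LTP2 (AT2G38530, chromosome 2, 16128176 to 16129399 in the TAIR10.1 annotation), a lipid-transfer protein that carries lipids and is found in the outer layers of the plant, was the most abundant transcript per length in both libraries, with 8452 and 10358 RPKM. The next gene was ICL at 3098 RPKM in replicate 1 and TIP2 at 3729.6 in replicate 2, and LTP2 lay above it in each. The size of this lead depends on the length used. LTP2 is listed with 780 bases against 1113 exonic bases in TAIR10.1, and over exonic length it had 5923 and 7259 RPKM against 5417 and 6444 for PYK10, a lead smaller than the gap between the LTP2 replicates. Of the other lipid-transfer genes, AT4G12520 had 1202 and 1164 RPKM, AT4G12510 had 1249 and 1119.6, and AT2G10940 had 1139.8 and 1115. The first pair lie beside AZI1 (708 and 1008 RPKM), a gene known from systemic immunity, in a stretch of chromosome 4 from 7401087 to 7421828. Products named as lipid-transfer proteins together made up 3.23% and 3.74% of the summed RPKM from 136 loci, of which 6 were dominant. A member of this family with a similar name, LTP1, stood far below its neighbour LTP2, at 199.5 and 275 RPKM.

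Proteins that build the cell wall formed the class with the most dominant genes, 16 of 325 loci, and held 5.23% and 5.37% of the summed RPKM. The glycine-rich protein gene GRP3S had 1655 and 1918 RPKM. The extensins, hydroxyproline-rich glycoproteins that are cross-linked in the wall, were represented by EXT4 with 2342 and 1566 and EXT3 with 2339.9 and 1543. Both extensins were higher in replicate 1, by a similar factor, while GRP3S was higher in replicate 2. The extensin-like gene ELP had 1420.5 and 1663 RPKM. AT2G43150, a proline-rich extensin-like gene, had 1271 and 1097. CWLP, which encodes a linker of wall and plasma membrane, had 1648 and 1072. The locus AT3G22121 lies inside CWLP and had 1516 and 1024 RPKM; the libraries do not mark strand, so reads of these overlapping loci cannot be told apart. Arabinogalactan proteins such as AGP12 (702 and 954) and FLA9 (931 and 1161) were dominant as well.

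Wall enzymes were fewer among the dominant genes. XTH15, a xyloglucan endotransglucosylase/hydrolase, which cuts and rejoins the tethers between cellulose fibrils, had 741 and 656 RPKM, and XTH4 had 467 and 617. The class held 1.32% and 1.4% of the summed RPKM from 361 loci. Among 10 genes of primary wall cellulose synthesis, 8 were at 10 RPKM or more in both libraries. KOR1, an endoglucanase needed for cellulose synthesis, led with 278 and 291. The catalytic subunits CESA3 (148 and 153), CESA1 (134 and 133) and CESA6 (96.9 and 89.5), which form the primary wall complex, followed. CESA9 and CESA10 were at 0.525 and 0.656 and at 0.0213 and 0.0270. The secondary wall subunits CESA4, CESA7 and CESA8, which work in xylem, were lower, with 7.75 and 6.80 RPKM for CESA7 and 7.86 and 7.09 for CESA8. The lowest value of CESA1, CESA3 and CESA6 was above the highest value of these secondary wall subunits.

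Aquaporins, the membrane channels for water, held 1.93% and 2.58% of the summed RPKM. TIP2 (also called TIP1;2; AT3G26520, chromosome 3, 9722443 to 9723904), a channel of the vacuolar membrane, had 3026 and 3729.6 RPKM and was among the 3 highest genes by the lower value. GAMMA-TIP, its close relative, had 1018 and 1356. At the plasma membrane, PIP1B had 971 and 1331 RPKM, PIP3 772 and 934, and PIP2B 745 and 1149. Each of these was higher in replicate 2. Of 35 aquaporin genes on the list, 15 were at 100 RPKM or more in both libraries and 27 at 1 or more. NIP4;1 and TIP1;3, which are known from pollen, had no read in either library. The seed vacuole channels TIP3;2, with 2.66 and 0.972 RPKM, and TIP3;1, with 0.835 and 0.153, were near the lower end, and of these TIP3;1 lay over 4-fold apart between the replicates, as did NIP2;1 with 21.8 and 4.07.

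**Figure D3:**
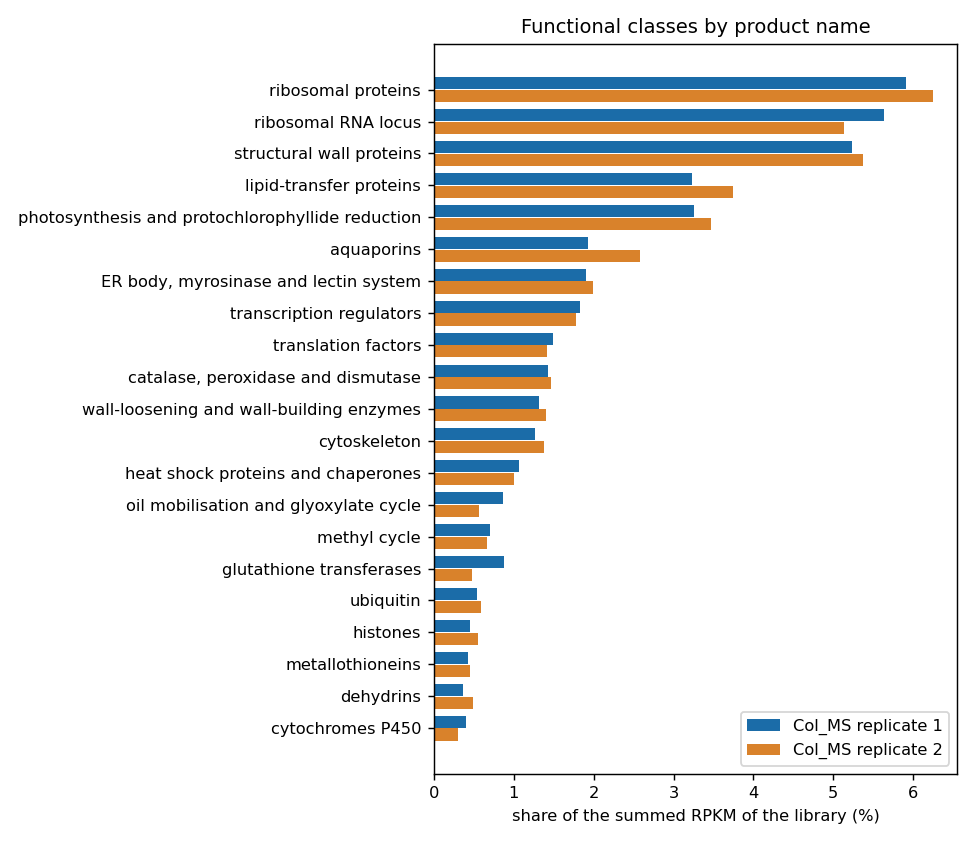
Share of the summed RPKM (%) held by classes of loci formed from their product names, in Col_MS replicate 1 (upper bar of each pair) and replicate 2 (lower bar). Ribosomal proteins are the largest class, with 5.91% and 6.24%, and loci without a class, which held 59.9% and 58.9%, are not drawn.

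Ribosomal proteins held the largest share of any class, 5.91% and 6.24% of the summed RPKM, although no gene filed in the class was dominant. AT5G18380, a dominant gene with 514 and 602 RPKM, was not filed there because its product name, Ribosomal protein S5 domain 2-like superfamily protein, is that of a wider superfamily. The share was spread over 389 loci, of which 340 were read in both libraries and 125 reached 100 RPKM in both. The highest in the class were RPL12-C, a protein of the plastid ribosome, with 452 and 459.9 RPKM, EMB2296 with 436 and 407, and AT5G20290 with 389 and 409. The class thus held its share through many genes of middling level. The genes also shared sequence features. In Arabidopsis, ribosomal protein genes are known for a site II element, TGGGCC, and a telo-box, AAACCCTA, near their start. Within 250 bases before the annotated start and on either strand, TGGGCC was present in 45.1% of 357 ribosomal protein genes annotated as nuclear and protein coding, against 13.7% of all 27439 such genes, and AAACCCTA in 17.1% against 4.49%. Among the 84 protein-coding dominant genes these shares were 11.9% and 2.38%. TATAAA was present in 48.2% of ribosomal protein genes, 47.6% of dominant genes and 47.4% of all genes. A gene counts once per motif, and TGGGCC can overlap its own reverse complement. The windows of the 3 highest ribosomal protein genes are shown to let the elements be seen, beside those of PYK10 and PORA, which are dominant genes, and of AG, a gene without a read. Capitals mark TGGGCC, AAACCCTA and TATAAA on either strand, and each sequence runs 5′ to 3′ toward the gene. The windows, from TAIR10.1, are chr3:10324538-10324787 (+ strand) for RPL12-C, chr2:7836817-7837066 (+ strand) for EMB2296, chr5:6853107-6853356 (- strand) for AT5G20290, chr3:2843782-2844031 (- strand) for PYK10, chr5:21992815-21993064 (- strand) for PORA, chr4:10382606-10382855 (+ strand) for AG.
RPL12-C: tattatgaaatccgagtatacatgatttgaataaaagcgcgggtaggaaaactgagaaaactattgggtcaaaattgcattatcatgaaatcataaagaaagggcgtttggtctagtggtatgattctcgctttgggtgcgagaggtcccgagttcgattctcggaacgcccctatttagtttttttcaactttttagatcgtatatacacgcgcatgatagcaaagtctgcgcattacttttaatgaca
EMB2296: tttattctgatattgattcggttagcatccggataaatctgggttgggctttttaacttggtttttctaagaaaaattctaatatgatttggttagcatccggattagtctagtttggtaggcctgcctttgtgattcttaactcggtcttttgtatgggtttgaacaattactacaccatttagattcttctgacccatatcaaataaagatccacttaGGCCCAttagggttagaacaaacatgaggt
AT5G20290: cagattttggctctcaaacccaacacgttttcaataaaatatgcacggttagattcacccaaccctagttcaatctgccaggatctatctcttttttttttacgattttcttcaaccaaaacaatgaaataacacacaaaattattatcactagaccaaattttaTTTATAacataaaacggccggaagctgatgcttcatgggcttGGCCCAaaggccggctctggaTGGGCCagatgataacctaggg
PYK10: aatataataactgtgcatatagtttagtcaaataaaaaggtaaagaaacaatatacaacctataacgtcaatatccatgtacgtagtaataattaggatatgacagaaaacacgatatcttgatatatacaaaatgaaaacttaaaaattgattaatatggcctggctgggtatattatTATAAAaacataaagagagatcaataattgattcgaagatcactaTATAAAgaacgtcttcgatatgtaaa
PORA: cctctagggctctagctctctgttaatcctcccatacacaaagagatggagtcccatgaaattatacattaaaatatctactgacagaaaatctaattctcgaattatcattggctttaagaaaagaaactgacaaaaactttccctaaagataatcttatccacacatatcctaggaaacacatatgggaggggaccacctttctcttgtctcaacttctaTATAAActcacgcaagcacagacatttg
AG: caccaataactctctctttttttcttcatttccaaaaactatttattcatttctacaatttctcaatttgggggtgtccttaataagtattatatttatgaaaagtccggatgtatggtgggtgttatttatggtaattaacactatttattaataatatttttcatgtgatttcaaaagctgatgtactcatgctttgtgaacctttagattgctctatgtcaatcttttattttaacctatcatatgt
EMB2296 held TGGGCC on the reverse strand, AT5G20290 held it on both strands beside a TATAAA on the reverse strand, and RPL12-C held none of the motifs, so not every high gene of the class held them. PYK10 and PORA each held TATAAA close to the annotated start, with its first base 26 bases before the start in PYK10 and 28 in PORA. TATAAA within 45 to 21 bases before the start was no general feature of the dominant genes, being present in 7.14% of the 84 against 6.57% of all genes. The AG window held none. These matches describe letters in a window and were not tested for function.

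Single genes of translation, protein folding and the methyl cycle lay above the genes filed in the class of ribosomal proteins. TCTP, a conserved growth-related protein, had 1107 and 1197 RPKM. The 3 dominant loci of elongation factor EF-1 alpha, which brings aminoacyl-tRNA to the ribosome, were AT5G60390 with 946 and 990.3, AT1G07920 with 659 and 627 and AT1G07940 with 523 and 552. These copies are near-identical, so uniquely mapped reads can undercount them or be split between them. HSC70-1, a constitutive chaperone, had 1153 and 1092 RPKM, and the polyubiquitin gene UBQ10 had 836 and 953. HOG1, which clears the S-adenosylhomocysteine left by methylation reactions, had 1289.6 and 1223 RPKM, and ATMS1, a methionine synthase, had 631 and 617.

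Genes of plastid and photosynthetic function were high in these dark-grown seedlings, and they fell into separate levels. PORB and PORA, the light-dependent protochlorophyllide reductases, had 989 and 1170.2 RPKM and 709.6 and 747. PORA is known to be expressed in darkness and to fade in light, and PHYA, the photoreceptor that accumulates in darkness, had 179.6 and 176. Among 13 genes of the dark-grown state, 12 were at 1 RPKM or more in both libraries and none was silent. The labelled growth in darkness was checked against this list and the light-grown list only, and both were read. Of the regulators, PIF3 had 25.6 and 23.8 RPKM, COP1 5.91 and 5.33 and HLS1, needed for the apical hook, 4.87 and 5.20.

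The small subunit of Rubisco, a photosynthetic enzyme, was at the top of the pool. RBCS1A (AT1G67090, chromosome 1, 25048158 to 25049667) had 3059 and 3233 RPKM, and RBCS3B, RBCS2B and RBCS1B had 1560.2 and 1714, 1321 and 1327, and 494 and 586. The last 3 are adjacent on chromosome 5, between 15376988 and 15385320, and are near-identical copies, so reads can be split between them. CAB1, a chlorophyll a/b-binding protein of photosystem II, had 1843 and 2065 RPKM. Its near-identical relatives LHCB1.1 and LHCB1.2 had 99.8 and 125, and 74.6 and 83.0, and the share assigned to each copy is uncertain. The other antenna genes spread widely. LHCA2 had 184 and 196 RPKM, LHCB3 77.6 and 77.9 and LHCA1 29.5 and 36.1, while LHCB2.1, LHCB2.2, LHCB2.3 and LHCB1.4 were under 10 in both libraries, down to 2.49 and 3.80 for LHCB1.4. All 26 genes of the photosynthesis list were at 1 RPKM or more in both libraries, 21 at 10 or more and 9 at 100 or more, and they ranged from RBCS1A to LHCB1.4. ELIP1 and ELIP2, genes of light stress, had 22.5 and 47.7, and 37.2 and 49.4 RPKM.

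The conversion of stored oil was led by ICL, isocitrate lyase, the first step that is particular to the glyoxylate cycle. ICL (AT3G21720, chromosome 3, 7652487 to 7656053) had 3098 and 1809.9 RPKM. PCK1, which makes phosphoenolpyruvate on the way to sugar, had 506 and 429, and MLS, malate synthase, had 255 and 198. PED1, the thiolase of peroxisomal beta-oxidation, had 179 and 156, MFP2, the multifunctional enzyme, had 102 and 84.7, and ACX2, a long-chain acyl-CoA oxidase, had 85.8 and 88.5. All 20 genes of the list were read in both libraries at 1 RPKM or more, and 17 at 10 or more. ICL differed most between the replicates of those named here, while ACX2 was nearly equal. Over exonic length, 2213 bases in place of the 3524 listed, ICL stood at 4933 and 2882 RPKM. The list took 0.921% and 0.607% of the summed RPKM. Glycolytic genes were also abundant, with GAPC2 at 737 and 647, FBA8 at 445 and 381, and all 10 members at 10 RPKM or more in both.

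Seed storage genes, which are used up and turned off after germination, were a faint remainder. Of 16 genes none was silent, but only 6 were at 1 RPKM or more in both libraries. M17, a late embryogenesis gene, was highest by its lower value with 8.53 and 5.60 RPKM. The seed storage and late embryogenesis genes CRA1, with 25.2 and 4.88, CRU3, with 8.69 and 2.12, EM6, with 7.36 and 1.3, SESA2, with 3.62 and 0.482, SESA4, with 1.31 and 0.206, and CRU2, with 0.577 and 0.0887, lay over 4-fold apart. The 16 genes summed to 82.8 RPKM in replicate 1 and 24.6 in replicate 2. The cause of this gap was not tested.

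Genes of the ER body, a compartment of Arabidopsis and its relatives that stores beta-glucosidases against herbivores, were also at the top. PYK10 (AT3G09260, chromosome 3, 2840477 to 2843781), the main beta-glucosidase of this compartment, had 2961 and 3522 RPKM, and over exonic length 5417 and 6444. PBP1, a lectin that binds PYK10, had 2132 and 2778, and NSP1, a nitrile specifier of glucosinolate breakdown, had 771 and 1038. PBP1, NSP1 and the lipase gene AT3G16370 lie together on chromosome 3 between 5556710 and 5581032. The lectin gene AT1G78850 had 1476 and 584 RPKM and differed by more than 2-fold between the replicates, whereas 85 of the 86 dominant genes did not. Of 15 genes of the myrosinase and ER body list, 12 were at 1 RPKM or more in both libraries. NAI2, needed to form ER bodies, had 151 and 144, and the myrosinase TGG1 had 115 and 100.5. BGLU18, the beta-glucosidase known for wound-induced ER bodies, was at 0.194 and 0.314.

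Other dominant genes had varied roles. CAT3, a catalase that removes the hydrogen peroxide made by beta-oxidation and other reactions, had 1439 and 1833 RPKM, while CAT2 had 225 and 195 and CAT1 11.4 and 9.69. MT1A, a metallothionein that binds metal ions, had 1080.5 and 1072 and MT2B 720.1 and 754. MLP28, of the MLP family, had 1166 and 1533. AT1G09310, of unknown function, had 1763 and 2808, and AT4G23670, of the polyketide cyclase group, had 997 and 1751. Both were higher in replicate 2. GER3, a germin, had 891 and 938, and GASA4, a gibberellin-regulated gene, had 876 and 839. Of the cytoskeleton, TUA6, TUA4 and TUB4, tubulins of the microtubule, had 693 and 714, 511 and 551, and 472 and 559.8 RPKM, and ACT2, a vegetative actin, 533 and 614. The reproductive actins ACT4 and ACT12 stood at 0.267 and 0.135 and at 0 in both.

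Structure differed between the dominant genes and others. The median coding length was 852 bases with 2 exons for the 84 dominant protein-coding genes, 1146 bases with 5 exons for 17440 genes at 1 RPKM or more in both libraries, and 555 bases with 2 exons for silent genes. Over all 27440 genes it was 1047 bases with 4 exons. These lengths are tied to how the sets were chosen. RPKM divides reads by length, which favours short loci in a ranking. Ranking by counts gave 89 loci, of which 59 were among the 86. A short locus also collects fewer reads, so at a given level it is more often without a read. The listed length that divides the counts was above the TAIR10.1 exonic length for 48 of the 84 genes (57.1%) and below it for 36 (42.9%). Over all 23957 listed protein-coding genes these shares were 70.5% and 29.4%, so lengths that raise RPKM were more frequent among the dominant genes. The listed length lowers the RPKM of some genes, such as PYK10 (3304 listed against 1806 exonic bases). It raises that of others, such as RBCS1B (1130 against 1894) and AGP15 (541 against 1034). Over exonic length 89 loci qualified as dominant and 70 of these were among the 86. The genes gained included FSD1 (921 and 890) and PCK1 (753 and 638), and those lost included RBCS1B, UBQ5 and PIP1C. In all, 17 dominant genes lay in 7 groups of neighbours within 10 protein-coding loci of each other.

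**Figure D4:**
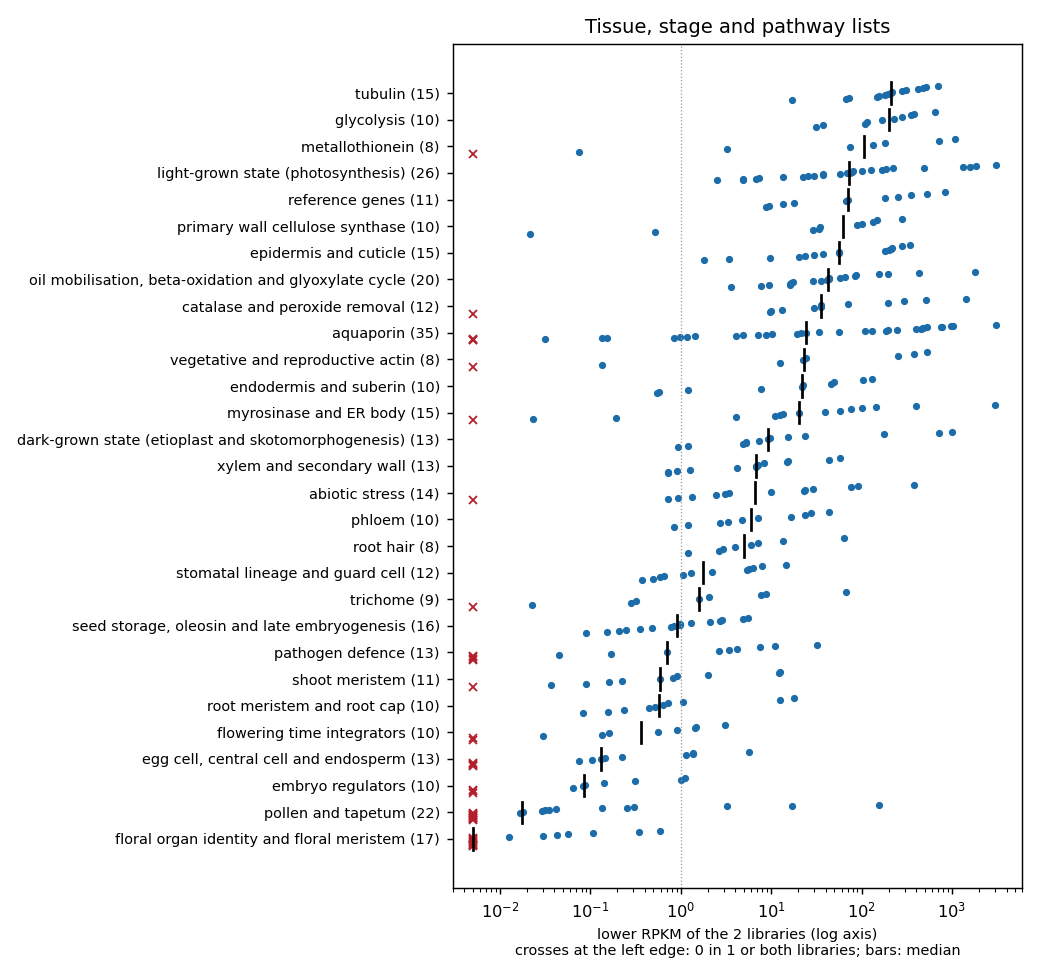
Each dot is a gene of a tissue, stage or pathway list (number of genes in brackets), placed by the lower of its RPKM in both Col_MS libraries (log axis); crosses at the left edge are genes at 0 in 1 or both libraries, and bars are medians. Lists of tubulin and glycolysis genes lie at the top, and those of floral organs, pollen and the embryo at the bottom.

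Tissue markers showed which parts of a seedling were in the pool. All 15 genes of epidermis and cuticle were at 1 RPKM or more in both libraries and 12 at 10 or more, led by PDF1 (345 and 368), CER6 (277 and 350.3) and FDH (214 and 229). CER6 and FDH act in wax and cuticle synthesis. Endodermis was present through ESB1 (131 and 140.2) and CASP1 (103 and 112), which build the Casparian strip. Of 10 genes of endodermis and suberin, 8 were at 1 RPKM or more in both libraries, 6 at 10 or more and 2 at 100 or more. Xylem was present through the proteases XCP2 (58.3 and 61.4) and XCP1 (43.2 and 48.1), and phloem through SWEET11 (43.4 and 49.9) and SUC2 (23.5 and 24.7), which load sugar. Root hairs were present through PRP3 (63.6 and 110.4) and LRX1 (13.7 and 18.3). All 8 root hair genes were at 1 RPKM or more in both libraries, but only these 2 (25%) at 10 or more. At 10 or more were 4 of 13 xylem genes (30.8%) and 4 of 10 phloem genes (40%), against 26.5% of all protein-coding genes. At 1 or more were 10 of 13 xylem and 9 of 10 phloem genes, against 63.6% of all. Stomatal lineage genes lay lower, with TMM at 7.82 and 8.28 and FAMA at 1.09 and 1.05. Most meristem genes were low: 3 of 11 shoot and 3 of 10 root meristem and root cap genes were at 1 RPKM or more in both libraries, and 2 of each at 10 or more. KNAT1 had 12.5 and 14.2 and CLV1 14.8 and 12.2, whereas WUS had 0.0389 and 0.0368 RPKM, STM 1.05 and 0.913, PLT1 0.533 and 0.235 and WOX5 0.523 and 1.11, while SCR, which patterns the root ground tissue, had 21.9 and 18.

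Of 27440 annotated nuclear protein-coding genes, 21901 (79.8%) were read in both libraries, 528 only in replicate 1, 688 only in replicate 2, and 4323 (15.8%) in neither. A gene with no read may still hold up to 3 reads of the total, which is 0.112 and 0.106 CPM. For a locus of 2 kb that is 0.0561 and 0.0531 RPKM, so silence is limited by depth. It is also limited by what was counted. The counting annotation is not given and unlisted loci were taken as 0, so a locus missing from it would count as silent. Only uniquely mapped reads were counted, so near-identical copies may lack reads. These limits hold for the silent counts and family shares below. Raising the bar from 0 to at most 3 reads in each library gave 5802 genes (21.1%). The share without a read ranged from 15.1% to 17.4% over the 5 chromosomes. Of the 4323 silent genes, 3483 had no read in any of the 6 libraries and 840 had a read in another group. Only 34 were read in all 4 of the other libraries. The promoter window held TGGGCC in 5.57% of silent genes, but 57.9% of them, against 14.4% of all genes, have the start codon as annotated start, so their window is not placed at a known transcript start. Without such starts TGGGCC was in 5.72% of 1818 silent genes, against 14.8% of 23500 genes.

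Genes of flowers and reproduction were among the least read of the lists. All 17 genes of floral identity were under 1 RPKM in both libraries. AG, AP1, CAL, CRC, SEP2, SPL and SUP, which specify floral organs or the floral meristem, had no read, and SHP1 was the highest at 0.627 and 0.585. Of 22 pollen and tapetum genes, ACT12, DUO1, MGH3, MS1, PRK2, SUC7, TIP1;3 and VGD1 had no read, and 19 were under 1 RPKM. The 3 above were TUB9 (155 and 176), TUA1 (17.2 and 17.5) and LAP6 (5.04 and 3.29). Of 10 regulators of the embryo, LEC1, LEC2 and WOX8 had no read, while 7 were read in both libraries and 2 were at 1 RPKM or more. Of 13 genes of egg cell, central cell and endosperm, EC1.2 and EC1.3, secreted by the egg cell, had no read. That is 15.4%, near the 15.8% of all protein-coding genes. In this list 9 genes were read in both libraries and 4 were at 1 RPKM or more. Of the flowering-time genes FT, the mobile flowering signal, was at 0.0298 and 0.0424, and GI, a clock gene, at 5.13 and 3.11. Across the genome, 33.1% of protein-coding genes were under 1 RPKM in both libraries.

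The 6 families with the highest share of silent loci encode small secreted proteins and F-box proteins. Of 51 loci of the ECA1 gametogenesis related family, 49 (96.1%) had no read, and of 44 plant thionins 41 (93.2%). In the S1 self-incompatibility family 48 of 60 (80.0%) were silent, and in the defensin-like family 67 of 87 (77.0%). Of 153 F-box proteins with associated interaction domains, 111 (72.5%) were silent. At the other end, 5 of 200 pentatricopeptide repeat (PPR) proteins, which act on organelle RNA, and 4 of 268 tetratricopeptide repeat-like proteins had no read. Products called uncharacterized protein were silent at 41.9% (1133 of 2702). The families were formed by exact product name, with at least 30 loci each, 81 in all.

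**Figure D5:**
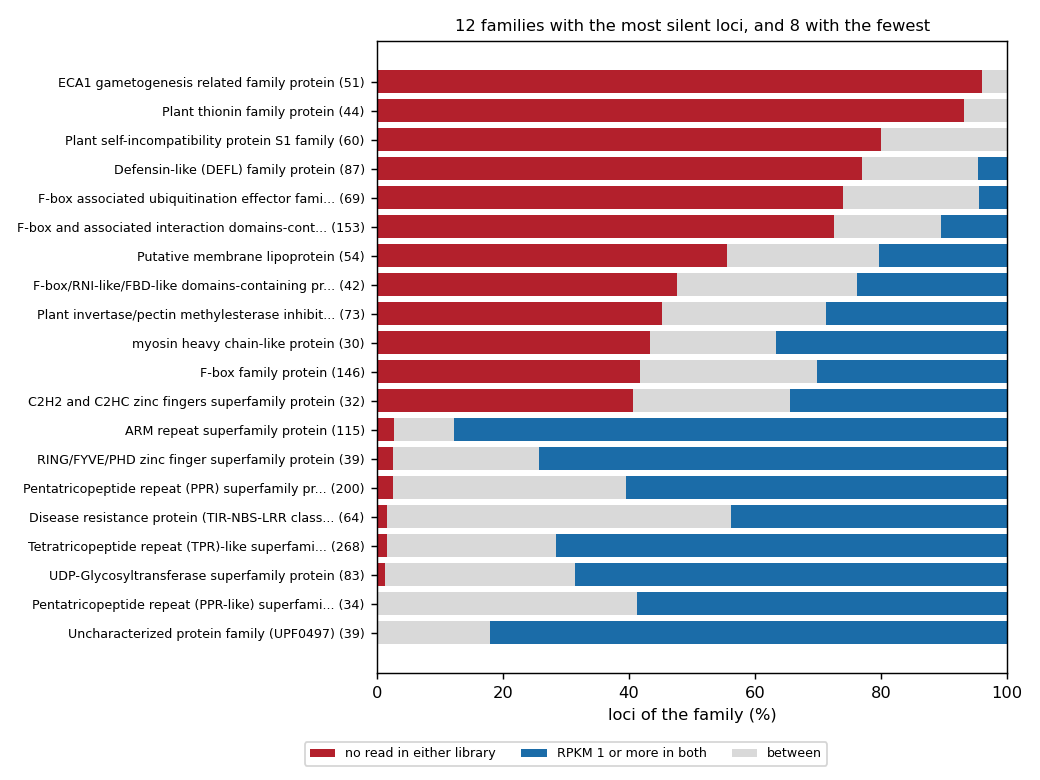
Percentage of the loci of a product family with no read in either Col_MS library (red), at an RPKM of 1 or more in both (blue) and between (grey), for the 12 families with the most silent loci and the 8 with the fewest. ECA1 gametogenesis related proteins and thionins are almost all red, and the PPR family, with 2.5% silent, shows almost no red.

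Levels that were not shared by both replicates were mostly high in replicate 1. Genes of camalexin synthesis, an indolic defence compound, showed some of the largest gaps of the lists: CYP71A12 had 47 and 0.170 RPKM, PAD3 36.5 and 0.705 and CYP71A13 2.46 and 0, and the defence gene FRK1 0.892 and 0.0455. PDC1, a gene of fermentation, had 105 and 23.3. Of the genes in the top 100 of replicate 1 alone, GSTF7, a glutathione transferase, had 661 and 50, AT1G03220 had 539 and 221, GSTF2 had 1069.9 and 465, and SAG21 had 790.4 and 505. In replicate 2 alone, TIP2;2 had 399 and 799, AGP21 358 and 594, COR47 375 and 591, AGP24 392 and 566 and AT1G78040 411 and 583. A total of 14 genes were in the top 100 of replicate 1 only and 14 of replicate 2 only. Of 13 pathogen defence genes, PDF1.2, PR2 and PR5 had no read in either library (23.1%, against 15.8% of all protein-coding genes). In this list 9 genes were read in both libraries and 6 were at 1 RPKM or more, among them PDF1.1 with 51.1 and 32 RPKM. The cause of the gaps between the replicates was not tested.

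The dominant genes were largely shared with the other groups. Of 86, 78 were in the top 100 of Col_Kyn replicate 1, 78 of Col_Kyn replicate 2, 77 of wei8tar2_MS replicate 1 and 78 of wei8tar2_MS replicate 2, and 74 in all 4. TUA4, AT1G07940, AGP9, UBQ5, ROC5 and AT5G18380 were in none of the 4. In edgeR's quasi-likelihood test of Col_MS against the mean of Col_Kyn and wei8tar2_MS, 580 of 21326 genes passed an adjusted p of 0.05 (2.72%), 348 higher in Col_MS (1.63%) and 232 lower (1.09%). Of the 86 dominant genes none was called higher and 4 were called lower, that is PIP1C, DELTA-TIP, GRP-3 and AT1G12080. These counts were 4 and 22 with DESeq2's own test, 3 and 14 without a filter on low counts, and 0 and 1 with DESeq2 size factors. They were 3 and 24 without Col_MS replicate 2, 1 and 2 without Col_Kyn replicate 1, and 0 and 0 without any 1 of the other 4 libraries. Values of the other libraries follow in the order Col_Kyn replicates 1 and 2, then wei8tar2_MS replicates 1 and 2. PIP1C had 766 and 1210.2 CPM in Col_MS, against 1869.7, 2026, 2062 and 1797 (log2 fold change -0.97 ± 0.19, edgeR adjusted p = 0.0491). DELTA-TIP, a vacuolar aquaporin, had 849 and 1219 CPM in Col_MS, against 1778, 2032, 1904 and 1777 (-0.86 ± 0.17, edgeR adjusted p = 0.0481). Both Col_MS libraries lay above all 4 others for 11 of the 86 genes and below for 34, while 17.8% and 15.2% of all tested genes did so. The calls depend on single libraries: 1 gene passed without wei8tar2_MS replicate 1 and 1 without wei8tar2_MS replicate 2, 87 without Col_Kyn replicate 2, 88 without Col_MS replicate 1, and 2121 without Col_MS replicate 2.

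Beyond the dominant genes, FTM1 and PRP1 were among the largest called differences higher in Col_MS. FTM1, a stearoyl-ACP desaturase-like gene, was at 577 and 85.5 CPM in Col_MS, against 70.5, 27.2, 13.8 and 26.9 (3.39 ± 0.67, edgeR adjusted p = 0.0491), and PRP1, a proline-rich wall protein, was at 19.5 and 36.6 against 5.45, 5.84, 5.10 and 5.76 (2.34 ± 0.23, edgeR adjusted p = 0.0123). AGP30, an arabinogalactan protein of roots, had 101 and 75.5 CPM against 17.8, 8.98, 28 and 23.0. Lower in Col_MS were ELIP1, with 24.3 and 52.7 CPM against 130.4, 139, 121 and 171 (-1.86 ± 0.31, edgeR adjusted p = 0.0383), IRT1, the iron transporter of the root, with 33.1 and 23.1 against 98.6, 52.2, 120.7 and 134, and ASN1, an asparagine synthetase of dark and sugar-starved tissue, with 50.1 and 65.7 against 119, 187, 199 and 191. With BCA3, CYP96A9, BXL1 and GH9B18 these are the 10 largest called genes, 5 in each direction, among genes whose averaged log2 CPM is 2 or higher, that carry a symbol and whose groups do not overlap. Below that level, EM1 (log2 fold change 4.58) and PLT1 (2.75) were called higher as well. EM1 had 1.75 and 0.843 CPM in Col_MS, against 0, 0, 0.551 and 0.670. The size of its fold change depends on the lack of reads in Col_Kyn and is uncertain. PLT1 had 1.56 and 0.702 CPM, against 0.160, 0.114, 0.220 and 0.158. Without Col_MS replicate 1, FTM1 stood at 1.43, BCA3 at 1.58 and CYP96A9 at 1.17, and none of these 3 was called. In the lists, 4 of 13 tested myrosinase and ER body genes (BGLU21, BGLU34, BGLU35 and GLL22) were called higher in Col_MS. The same held for 2 of 20 oil mobilisation genes (MLS and MFP2) and 2 of 9 root meristem and root cap genes (PLT1 and SMB). It also held for 2 of 15 seed storage and late embryogenesis genes (EM1 and SESA3). Over all tested genes 1.63% were called higher and 1.09% lower. Not every list is given here. Of 26 photosynthesis genes, 3 were lower (ELIP1, ELIP2 and HYH). Of 31 aquaporins, 2 were higher (PIP2;8 and TIP4;1) and 2 lower (PIP1C and DELTA-TIP). The median log2 fold change was -0.12 for the ER body list, 0.26 for oil mobilisation, 0.92 for root meristem and root cap, 0.86 for seed storage, -0.20 for photosynthesis and -0.44 for aquaporins, against 0.02 over all tested genes. These genes and lists were named after their values were seen. ICL had 10628 and 6327 CPM in Col_MS, against 6515, 2724, 1765 and 2066, and was not called (1.51 ± 0.33, edgeR adjusted p = 0.0585).

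Shares of the pool were set beside those of the other libraries. Ribosomal proteins held 5.91% and 6.24% in Col_MS, against 4.90%, 4.56%, 4.46% and 4.72% in Col_Kyn replicates 1 and 2 and wei8tar2_MS replicates 1 and 2. Aquaporins held 1.93% and 2.58% in Col_MS, against 3.10%, 3.37%, 3.54% and 3.27%. Of 22 classes, 4 lay above and 5 below all other libraries. With 2 libraries against 4, the exact two-sided permutation test cannot go below p = 0.133, which both of these classes reached (0.326 after Benjamini-Hochberg adjustment over the 22), so no class could pass 0.05.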

How the data were processed

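Messenger RNA of etiolated seedlings was sequenced in 6 libraries. Per the labels' protocols, mRNA was fragmented, primed with random hexamers and amplified, and no step marks strand. Per the submitters' processing notes, TopHat 1.3.0 made the alignments and TAIR10 was the build. Which program counted reads, on which annotation, is not given in the sources used here. The deposited tables give raw counts of uniquely mapped reads per gene, per the file headers. The deposited RPKM, per the file headers, divides the count by listed length in kilobases and by the library total; recomputed values were equal, and the listed length has a median of 94.5% of the TAIR10.1 locus span over 23957 genes, but is shorter than the exonic length for 29.4% of them. Loci not listed were taken as 0.

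Levels and ranks use the deposited RPKM. Symbols, coordinates, product names and promoter windows come from the TAIR10.1 RefSeq annotation and genome, matched by locus name. Loci within 10000 bases of ribosomal RNA genes were left out of ranks. Classes were formed by product name. Counts were fitted with edgeR 4.0.16 in R 4.3.3 (TMM, filterByExpr, quasi-likelihood test, 1 coefficient per group), with DESeq2 1.42.0 as an alternative; the script was tested on simulated data. Standard errors are the log2 fold change over the square root of F. CPM values are TMM-scaled. The Col_MS replicates were not copies (chi-square per degree of freedom 40.6). Equal replicate numbers were not treated as pairs. Named genes were the 30 dominant genes with the highest lower RPKM, the highest 4 of a class, the highest 6 of a list, list members that were silent or over 4-fold apart, and the 5 largest called genes each way whose averaged log2 CPM is 2 or higher, that carry a symbol and whose groups do not overlap; a few more, such as COP1, HLS1, STM and ICL in the comparison, were named for their role after their values were seen. Lists (403 symbols, 396 matched, 29 lists) and members were chosen with earlier results of these data known. Intervals and floors cover counting error only.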

Additional observations from a re-analysis of the deposited data

How the results depend on the processing

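Of the 86 dominant genes' alternatives, the 50 and the 200 highest loci gave 44 and 181 genes. Ranking by counts gave 89 (59 shared) and by exonic length, chosen after seeing the data, 89 (70 shared), and 1 library alone gives 100 by construction. Silent genes numbered 4323, 5802 at up to 3 reads, 9079 at under 1 RPKM, and 4851 to 5011 in 1 library. As shares of reads, in place of RPKM, structural wall proteins held 3.40% (5.30% by RPKM), photosynthesis 2.1% (3.36%), lipid-transfer proteins 1.48% (3.48%), aquaporins 1.78% (2.25%) and ribosomal proteins 4.21% (6.07%). Without ribosomal RNA and organelle loci, structural wall proteins held 5.64%, photosynthesis 3.57% and ribosomal proteins 6.46%. In the comparison with the other groups, edgeR called 580 genes (4998 at an unadjusted p under 0.05), 506 with DESeq2 size factors, 1492 without a filter on low counts and 1621 with DESeq2's own test. Leaving out 1 library gave 1 to 2121. With the replicate number as a replicate block it called 672 (500 shared). Deviations of same-numbered libraries correlated at 0.202 for Col_MS and Col_Kyn, 0.0220 for Col_MS and wei8tar2_MS, and -0.0390 for Col_Kyn and wei8tar2_MS. Such correlations across genes cannot decide whether libraries of equal number were prepared together. The numbers were not treated as pairs in the main fit. All 14 named genes lost their call without wei8tar2_MS replicate 1, all 14 without wei8tar2_MS replicate 2, and 12 without Col_MS replicate 1. Genes under the floor of 3 reads could not be told from silent ones.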
